A study of Mus musculus with 21 samples.

Results

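Genes for 6 transcription factors that mark classes of ventral spinal cord and hindbrain interneurons, Evx1, Evx2, Foxn4, Tal1, Sox14 and Sim1, were followed across neurons derived from mouse embryonic stem cells. They were chosen by name and are 6 of the 18193 genes with a probe set assigned to a single gene symbol. The 6 genes have 7 probe sets, and the second one of Sim1 is described beside the first. RNA of purified post-mitotic neurons was measured on 21 Affymetrix mouse expression arrays, in 7 groups of 3 arrays labelled as biological replicates. In the NesE-Olig2 line, labelled as somatic motoneurons, cells were sampled at day 8 with sonic hedgehog (SHH) and retinoic acid (RA). The NesE-Nkx2.2 line, labelled as serotonergic neurons, was grown to day 10 with SHH plus RA (caudal hindbrain) or SHH plus FGF8 (rostral hindbrain). Cells of the NesE-Lmx1a line, labelled as mesencephalic dopamine neurons, were sampled at day 10 and day 14 with SHH and FGF8. Wild type cells came from day 10 of FGF8 and from day 8 of RA treatment. The titles of the wild type samples name SHH, while their source names leave it out and their descriptions place the cells in dorsal midbrain and dorsal hindbrain. If they had no SHH, every comparison with wild type cells changes the line and SHH together, and these cannot be told apart. Each driven line carries its factor under a nestin enhancer (NesE), which is active in neural progenitors, and the labels do not say how many clones a line comprises.

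In the ventral neural tube, graded SHH sets up progenitor domains called p0, p1, p2, pMN and p3 from dorsal to ventral. They give rise to V0, V1 and V2 interneurons, motor neurons and V3 interneurons respectively. Evx1 and Evx2 encode homeodomain factors of V0 neurons. Foxn4 acts in p2 progenitors, where Notch signalling divides V2 cells into V2a and V2b, and Tal1 (also called Scl) acts with Gata2 and Gata3 in V2b cells. Sox14 is a SoxB2 factor of V2a cells, and Sim1 encodes a bHLH-PAS factor of V3 cells, which arise from the same p3 domain that in the hindbrain also gives visceral motor neurons and serotonergic neurons.

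The DNA just upstream of Evx1 and Tal1 is shown because these genes were high in the same wild type groups and low in the motor neuron line. Each sequence is the 250 bases before the RefSeq start of the gene (build GRCm38.p6, plus strand, 5′ to 3′), at chr6:52313248-52313497 for Evx1 and chr4:115056176-115056425 for Tal1. Capitals mark matches on either strand to CANNTG, the E-box bound by bHLH dimers such as those of TAL1, or to AGATAA, a site of factors of the GATA family that reads TTATCT on the other strand.
Evx1: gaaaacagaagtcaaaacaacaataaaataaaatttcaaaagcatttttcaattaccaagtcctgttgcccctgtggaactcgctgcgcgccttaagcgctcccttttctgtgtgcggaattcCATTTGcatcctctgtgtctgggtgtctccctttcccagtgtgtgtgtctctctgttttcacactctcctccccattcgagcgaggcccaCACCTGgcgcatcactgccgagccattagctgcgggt
Tal1: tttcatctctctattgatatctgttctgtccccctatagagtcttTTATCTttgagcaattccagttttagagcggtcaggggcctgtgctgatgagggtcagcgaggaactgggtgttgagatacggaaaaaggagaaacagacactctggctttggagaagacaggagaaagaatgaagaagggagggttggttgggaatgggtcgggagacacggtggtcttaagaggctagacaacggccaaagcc
The Evx1 window held 2 E-boxes, CATTTG and CACCTG, 127 and 37 bases before the start, and 66.2% of 32851 windows of this length hold at least 1. The Tal1 window held 1 GATA site, 205 bases before the start, against 9.99% of windows. The homeodomain core TAATTA, searched on both strands and present in 4.84% of windows, was in neither. A match describes letters and was not tested as a binding site.

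All values below are log2 signals centred on the median of each probe set over 27 arrays, of which 21 are used here. A value is therefore a deviation from that median, not a level, and values of different genes cannot be ranked against each other. The bioC hybridization controls divided the arrays into 9 with values from -2.75 to -1.27 and 12 with values from -0.15 to 0.65. The labels name no batch, and these sets, inferred from the bioC controls only, are called the first and second batch below. The first batch held all Lmx1a day 10 arrays and replicates 1 and 2 of the Lmx1a day 14, Olig2 and FGF8 wild type groups. The 3 Lmx1a day 10 arrays also had the lowest labelling controls, at -2.86 to -2.83 against -1.44 to 1.61 elsewhere, so labelling and group cannot be told apart there. Replicate 1 of Lmx1a day 10, replicate 2 of the FGF8 wild type and replicate 1 of the Nkx2.2 FGF8 group had the highest array medians, at 0.04 to 0.09. In these bulk samples fewer cells of a type and less RNA per cell cannot be told apart.

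The labelled cell types were checked against their markers. In the Olig2 line 6 of 7 motor neuron markers rose against the RA wild type, among them Mnx1, a homeodomain factor of motor neurons, at 8.16, 7.76 and 8.03 against 0.48, 0.66 and 1.92. By group mean the driven genes were highest in their own lines, at 4.44 for Olig2 and 8.19 and 9.08 for Lmx1a at day 10 and day 14. Nkx2-2 had means of 1.64 and 0.72 in the Nkx2.2 groups against -1.64 to -0.03 elsewhere. Single arrays overlapped for Olig2 and Nkx2-2. Olig2 was at 4.89 on replicate 3 of Lmx1a day 10 against 3.80 to 5.24 in its own line. Nkx2-2 was at 0.13 on replicate 3 of the Nkx2.2 FGF8 group and at 0.20 on replicate 2 of the Olig2 group. Of 6 serotonergic markers, 5 rose in the Nkx2.2 line against wild type under RA and 5 under FGF8. Tph2, the tryptophan hydroxylase of serotonin synthesis, was at 4.32, 4.62 and 4.36 under RA and at 5.85, 6.40 and 4.48 under FGF8. Isl1, a LIM homeodomain factor of motor neurons, had a mean of 0.57 under FGF8, close to the 0.61 of the Olig2 line. Its means in the FGF8 wild type and Lmx1a day 10 groups were 0.14 and 0.07. The mean of all 7 motor neuron markers was 0.34 in the Nkx2.2 FGF8 group against 4.69 in the Olig2 line. Of 5 midbrain dopaminergic markers, 3 rose in Lmx1a cells at day 10 against the FGF8 wild type, namely Th, Nr4a2 and Foxa2, while Pitx3 and the dopamine transporter gene Slc6a3 were near 0. Slc6a3 was at 3.22, 5.39 and 4.31 by day 14. Tal1 also works in blood and endothelium, and all 6 measured blood markers lay within 0.5 of 0 on every array, as did 4 of 6 endothelial markers. The exceptions among the latter were Kdr and Cdh5. Kdr, a VEGF receptor, rose in Lmx1a day 10 cells, where Tal1 was low. Cdh5 was at 1.15 on replicate 2 of the RA wild type and at 0.69 on replicate 1 of the Nkx2.2 FGF8 group. Tal1 was at 3.69 and 3.18 on these arrays. The part of endothelial cells in the Tal1 values was not tested.

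The V0 gene Evx1 was high in wild type cells and at the baseline in motor and serotonergic neurons. Its RA wild type arrays were at 4.37, 3.39 and 2.55, and its FGF8 wild type arrays at 1.32, 1.87 and 1.21. The 15 arrays of the engineered lines all lay between -0.05 and 0.12, so no engineered array overlapped a wild type array. In the fit 1 variance is shared by all 7 groups. The SD of Evx1 was 0.92 in the RA wild type and 0.35 in the FGF8 wild type, but 0.01 to 0.08 in the engineered groups. The SE and p-values of Evx1 below therefore understate the spread of the RA wild type arrays. Evx1 fell by 3.44 ± 0.29 (SE, n = 3 arrays a group) in the Olig2 line against the RA wild type, with an adjusted p of 1.69e-06 in limma. In the second batch, which holds 1 Olig2 array and 1 FGF8 wild type array, the difference was -3.45. There and in other values from this batch, a lone array is assumed to vary like the other groups. Against the same controls it fell by 3.47 ± 0.29 in the Nkx2.2 line under RA (adjusted p = 1.04e-06 in limma). Under FGF8 it fell by 1.47 ± 0.29 in the Nkx2.2 line (adjusted p = 0.00676 in limma), a call that was lost without the 3 arrays with the highest medians (-1.29, adjusted p = 0.0637). Against the lone FGF8 wild type array of the second batch the difference was -1.21 (adjusted p = 0.38). Lmx1a cells at day 10 were lower than the FGF8 wild type by a log2 difference of -1.44 ± 0.29 (adjusted p = 0.0103 in limma), which missed the threshold without those 3 arrays (adjusted p = 0.0791). In order of group means, the RA wild type exceeded the FGF8 wild type by 1.97 ± 0.29 (adjusted p = 0.000632 in limma), although day 8 and day 10 differ as well. This call was lost with only these 6 arrays in the fit (adjusted p = 0.0943). Against the lone FGF8 wild type array of the second batch the difference was 2.23 (adjusted p = 0.07). The engineered groups, with means from -0.04 to 0.03, were not told apart from each other. Markers of dorsal interneurons stood beside Evx1: the mean of 6 genes was 2.45 to 2.85 on the RA wild type arrays, 3.61 to 4.94 on the FGF8 wild type arrays and -0.57 to 1.24 elsewhere, with Ptf1a flat throughout. Of the 6, 3 fell in the Olig2 line, 3 in the Nkx2.2 line under RA and 5 under FGF8. Their median difference was -2.005, -2.50 and -4.61, beside 0.04, 0.01 and -0.01 over all genes. The part of these markers in the Evx1 values was not tested. Evx1 also marks primitive streak, and 3 of 4 genes of that list lay within 0.5 of 0 on every array, the exception being Eomes, which reached 4.07 in the FGF8 wild type and 4.76 in Lmx1a day 10 cells.

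Evx2, the paralogue that V0 neurons express alongside Evx1, stayed flat. Its 21 values ran from -0.02 to 0.06, and its SD of 0.018 was lower than that of all but 0.033% of genes. A centred probe set that does not move cannot show whether the gene was present or absent throughout. Of the 5 measured genes of the V0 and p0 list, Dbx2 was also flat, within -0.14 to 0.26. Dbx1, the homeodomain factor of p0 progenitors, behaved otherwise than Evx1 between the wild type groups. It was at 5.995, 4.03 and 6.655 in the FGF8 wild type and at 1.68, 1.45 and 0.29 in the RA wild type, a fall of 4.42 ± 0.72 (adjusted p = 0.00123 in limma). The Olig2 arrays lay at -0.20, 0.00 and -0.14. Pax7, a dorsal progenitor factor, was at 4.71 and 4.72 in replicates 1 and 3 of the FGF8 wild type but at 0.11 in replicate 2, and within -0.04 to 0.11 on all arrays of other groups. Against wild type, the list had 0 genes higher and 1 lower in the Olig2 line, 0 and 1 in the Nkx2.2 line under RA, and 0 and 3 under FGF8. Its median difference was 0.02, 0.01 and -1.47 in these comparisons, beside 0.04, 0.01 and -0.01 over all genes.

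**Figure D1:**
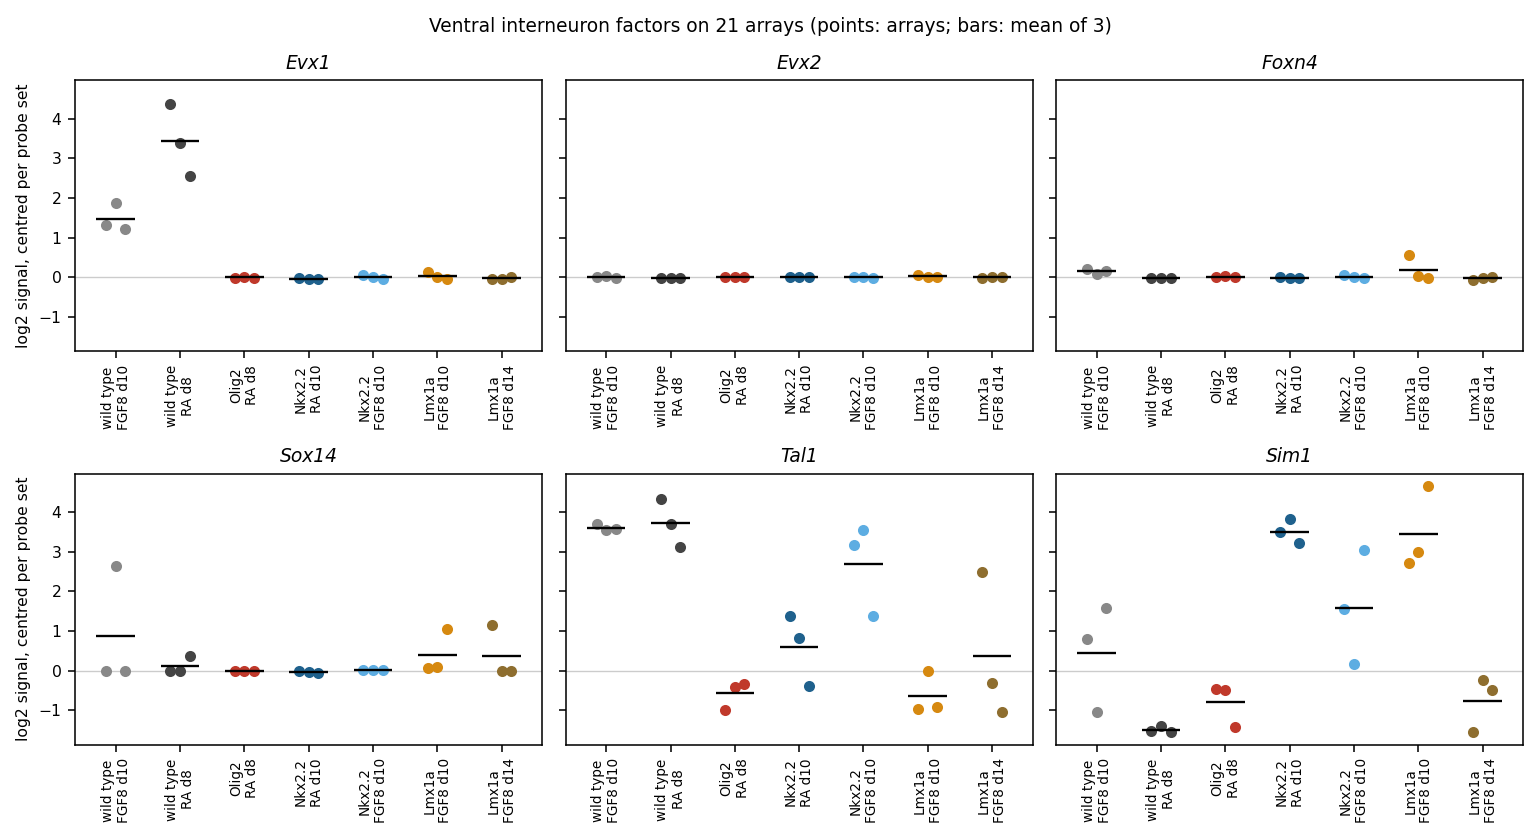
Centred log2 signal (y axis) of the 6 genes on 21 arrays, by group (x axis); points are arrays and bars are means of 3. Evx1 is above 1 only in the wild type groups, Evx2 and Foxn4 stay near 0, Sox14 rises on single arrays, Tal1 is highest in wild type cells and Sim1 in the Nkx2.2 RA and Lmx1a day 10 groups.

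The V1 and p1 list, which holds no member of the 6, held falls beside that of Evx1 under RA. Of 4 measured genes, En1, Foxd3 and Foxp2, all transcription factors of V1 neurons, were lower in both RA lines, with 0 higher and 3 lower in each. Foxd3 was at 2.74, 2.52 and 2.51 in the RA wild type, at 0.44, 0.17 and 1.68 in the Olig2 line, and at -0.01, -0.03 and -0.04 in the Nkx2.2 line under RA. The list's median difference was -1.77 in the Olig2 line and -2.21 in the Nkx2.2 line, beside 0.04 and 0.01 over all genes. In the Nkx2.2 line 3 of the 4 genes were higher under FGF8 than under RA, among them En1 by 3.19 ± 0.41 (adjusted p = 0.000243 in limma). En1 also marks the midbrain and rostral hindbrain.

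Of the p2 and V2 genes, Foxn4 showed little change. It was at 0.56 on replicate 1 of Lmx1a day 10, one of the 3 arrays with a high median, at 0.20, 0.08 and 0.15 in the FGF8 wild type, and between -0.08 and 0.05 on the remaining 17 arrays. No comparison called it. Dll4, a Notch ligand of V2 precursors, was similarly flat, from -0.09 to 0.35. The p2 and Notch list had 7 measured genes, among them Irx3 and Nkx6-1, homeodomain factors that set the limits of p2. Irx3 was at 1.62, 2.11 and 1.22 in the RA wild type, at -0.18, -0.18 and -0.07 in the Olig2 line and at -1.86, -2.02 and -1.39 in the Nkx2.2 line under RA. It fell by 1.79 ± 0.25 in the Olig2 line and fell by 3.41 ± 0.25 in the Nkx2.2 line (adjusted p = 0.000188 and 2.31e-07 in limma). Nkx6-1 was at 1.37, 1.69 and 1.14 in the Nkx2.2 line under RA against -0.71, -0.71 and -1.93 in wild type, a rise of 2.51 ± 0.42 (adjusted p = 0.000365 in limma). Dll1, a Notch ligand of neural progenitors, was at -1.62, -1.09 and -0.38 there against 0.44, 0.21 and 0.12, and fell by 1.29 ± 0.40 (adjusted p = 0.0249 in limma). Against wild type, the list had 0 higher and 1 lower in the Olig2 line, 1 and 2 in the Nkx2.2 line under RA, and 0 and 2 under FGF8. Its median difference was -0.01, -0.67 and -0.89, beside 0.04, 0.01 and -0.01 over all genes. In these comparisons 10.4%, 18.0% and 4.53% of all genes were called.

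Sox14 appeared on single arrays. It was at 2.65 on replicate 2 of the FGF8 wild type, 1.14 on replicate 1 of Lmx1a day 14, 1.04 on replicate 3 of Lmx1a day 10 and 0.37 on replicate 3 of the RA wild type. The other 17 arrays, including all 9 of the motor and serotonergic groups, lay between -0.05 and 0.08. No group held it on more than 1 array above 0.3, and no comparison called it. The FGF8 wild type array with the highest Sox14 was also the one without Pax7, and on it Tal2, a bHLH factor of midbrain GABAergic neurons, was at 0.09 against 3.02 and 4.18 on the others.

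The V2a list held further genes with other roles. Lhx3 works in V2a and motor neurons alike and was at 7.96, 7.84 and 8.12 in the Olig2 line, at 5.23, 5.07 and 4.61 in the RA wild type and within -0.05 to 0.08 elsewhere. Shox2, a homeodomain factor of V2a and other excitatory interneurons, gave the reverse order. It was at -2.67, -2.65 and -2.21 in the Olig2 line, at 3.19, 2.84 and 2.75 in the RA wild type and at 4.23, 4.31 and 4.11 in the Nkx2.2 line under RA. It fell by 5.44 ± 0.65 in the Olig2 line (adjusted p = 5.46e-05 in limma). Of 5 measured V2a genes, 1 rose and 1 fell in the Olig2 line, and 0 rose and 2 fell in the Nkx2.2 line under RA. The list's median difference was 0.04 and -0.15, beside 0.04 and 0.01 over all genes. Vsx1 was flat, within -0.04 to 0.16.

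Tal1, the V2b factor, was high in wild type cells and split the engineered lines. The RA wild type arrays were at 4.34, 3.69 and 3.11 and the FGF8 wild type arrays at 3.71, 3.53 and 3.58. The Olig2 arrays were at -0.99, -0.41 and -0.33, far below every wild type array. Tal1 fell there by 4.29 ± 0.76 (adjusted p = 0.00126 in limma). Within the second batch, which holds 1 Olig2 array, the difference was -4.04 (adjusted p = 0.0876). In the Nkx2.2 line the arrays were at 1.38, 0.83 and -0.39 under RA and at 3.18, 3.55 and 1.36 under FGF8, so the conditions overlapped slightly. Against the RA wild type Tal1 fell by 3.10 ± 0.76 (adjusted p = 0.00573 in limma). Against the FGF8 wild type the difference was -0.91 ± 0.76 (adjusted p = 0.656 in limma), with a 95% interval from -2.51 to 0.70. Serotonergic cells under FGF8 thus had a Tal1 signal that was not told apart from wild type, and exceeded the Olig2 line by 3.27 ± 0.76 (adjusted p = 0.0104 in limma). Condition and day also differ between these cells and the Olig2 line. The difference between FGF8 and RA within the Nkx2.2 line was 2.09 ± 0.76 and was not called (adjusted p = 0.122 in limma).

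The Lmx1a line had low Tal1, at -0.98, 0.00 and -0.91 at day 10, and 2.48, -0.31 and -1.04 at day 14. Day 10 was lower than the FGF8 wild type by a log2 difference of -4.23 ± 0.76 (adjusted p = 0.00433 in limma; -4.25 and 0.0554 within the first batch) and lower than the Nkx2.2 line under FGF8 by -3.33 ± 0.76 (adjusted p = 0.0138 in limma). The latter call was lost without replicate 1 of the Nkx2.2 FGF8 group (adjusted p = 0.0642) or without its replicate 2 (adjusted p = 0.0673). The day 14 mean rested on replicate 1, without which the difference from day 10 was -0.05 in place of 1.00. In order of group means Tal1 ran from 3.71 in the RA wild type and 3.61 in the FGF8 wild type through 2.70, 0.61 and 0.38 in the Nkx2.2 FGF8, Nkx2.2 RA and Lmx1a day 14 groups to -0.58 and -0.63 in the Olig2 and Lmx1a day 10 groups. No 2 neighbours in this order were told apart.

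Gata2 and Gata3, which act with Tal1 in V2b cells and are also needed in serotonergic neurons, differed from wild type otherwise than Tal1 did in the Nkx2.2 line. Within that line all 3 had higher means under FGF8 than under RA, 3.63 against 2.85 for Gata2 and 3.88 against 3.12 for Gata3, and none of these differences was called. Gata3 was at 3.37, 3.29 and 2.70 under RA and at 4.31, 4.32 and 3.01 under FGF8, while the Olig2 arrays were at -4.67, -4.55 and -4.01. In the Olig2 line Gata2 and Gata3 fell with Tal1, with differences of -3.21 ± 0.54 and -6.91 ± 0.65 (adjusted p = 0.000874 and 4.47e-06 in limma). In the Nkx2.2 line under RA Gata2 rose by 1.72 ± 0.54 (adjusted p = 0.0257 in limma) while Tal1 fell. Gata3 did not differ by a call there, as the RA wild type arrays were at 2.97, 2.68 and 1.84. Its means were 3.12 in the Nkx2.2 line and 2.50 in the RA wild type. Under FGF8 Gata2 and Gata3 rose by 3.36 ± 0.54 and 3.67 ± 0.65 (adjusted p = 0.00133 and 0.00274 in limma). Of 5 measured V2b and V2c genes, 1 rose and 3 fell in the Olig2 line, 2 rose and 1 fell in the Nkx2.2 line under RA, and 2 rose and 0 fell under FGF8. The median difference was -3.21, 0.62 and 1.27, beside 0.04, 0.01 and -0.01 over all genes. Of 7 genes for partners of the members' proteins, Lmo2, which encodes a LIM-only protein that joins TAL1 and GATA factors, had differences of -2.70 ± 0.25 in the Olig2 line and -3.97 ± 0.25 in the Nkx2.2 line under RA (adjusted p = 4.03e-06 and 4.66e-08 in limma). Lyl1, a bHLH gene close to Tal1, was flat, within -0.04 to 0.09. Tal1, Gata2 and Gata3 also act in midbrain GABAergic neurons. Of 7 measured genes on that list 0 rose and 5 fell in the Olig2 line against wild type. In the Nkx2.2 line 1 rose and 3 fell under RA, and 2 rose and 1 fell under FGF8. The list's median difference was -3.31, -0.15 and 0.19, beside 0.04, 0.01 and -0.01 over all genes. Gad1, which encodes a GABA-synthesising enzyme, was at -2.71, -2.49 and -1.83 in the Olig2 line and at 4.57, 3.47 and 3.58 in the RA wild type.

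The 3 genes whose pattern over 21 arrays was most like Tal1 encode muscle proteins. Acta1, Actc1 and Mylpf had Pearson r of 0.868, 0.857 and 0.841, as a description over arrays that share groups. A list of 15 skeletal muscle genes, chosen after this was seen, had an array mean of 2.87, 1.80 and 0.92 in the RA wild type, 1.08, 0.51 and 1.09 in the FGF8 wild type. In the Nkx2.2 line under FGF8 it was 1.01, 0.95 and 0.14. It lay between -0.44 and 0.40 in the other groups. Since the list holds those 3 genes, its likeness to Tal1 is partly built in. The mean of the other 12 was 2.50, 1.41 and 0.64 in the RA wild type, 0.63, 0.25 and 0.53 in the FGF8 wild type, 0.65, 0.56 and 0.01 in the Nkx2.2 line under FGF8, and -0.31 to 0.37 in the other groups. On the RA wild type arrays 9 to 11 of the 15 genes were above 0.5, and on the FGF8 wild type arrays 6. The muscle regulator Myog was at 3.89, 2.31 and 0.71 in the RA wild type but had a mean of 0.03 in the FGF8 wild type and 0.02 in the Nkx2.2 line under FGF8. Myl1, a myosin light chain gene, had means of 2.09 and 2.08 in the latter groups. Myh8, a myosin heavy chain gene, had its highest mean, 3.24, in the Nkx2.2 line under RA. Other muscle regulators differed from Myog. Myod1 was at 1.04, 0.03 and -0.02 in the RA wild type, and Myf5 was at -0.07, -0.06 and -0.11 there. Myf5 reached 3.12 on replicate 3 of Lmx1a day 10, where Tal1 was at -0.91. On replicate 1 of Lmx1a day 14 Tal1 was at 2.48 and the list mean at -0.16. The part of muscle RNA in the Tal1 values was not tested.

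**Figure D2:**
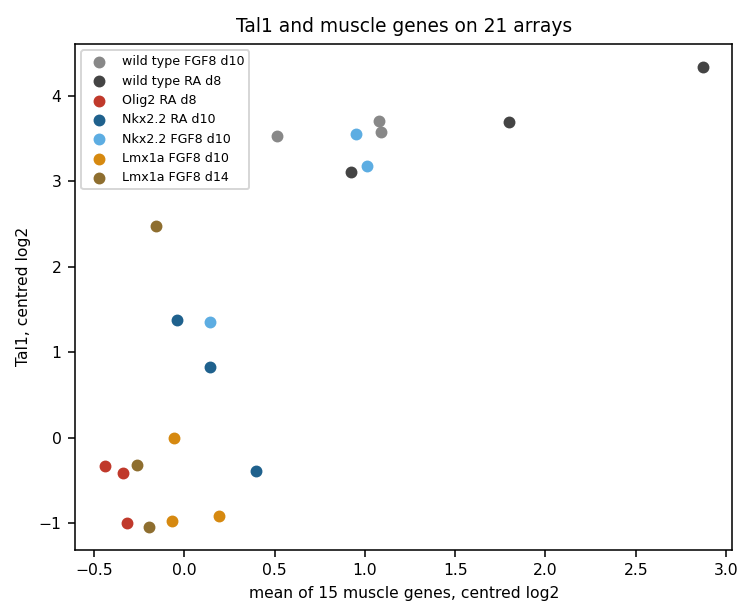
Tal1 (y axis) against the mean of 15 muscle genes (x axis), both as centred log2 signal; each point is 1 of 21 arrays, coloured by group, and the mean includes the 3 genes most like Tal1. The RA wild type arrays lie at 0.92 to 2.87 on the x axis, and the FGF8 wild type and 2 Nkx2.2 FGF8 arrays lie between 0.51 and 1.09 with Tal1 above 3.

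The V3 gene Sim1 followed another pattern and was high in the serotonergic line under RA and in the dopaminergic line at day 10. The Nkx2.2 arrays under RA were at 3.48, 3.82 and 3.20 and the RA wild type arrays at -1.51, -1.41 and -1.56. The Olig2 arrays were at -0.48, -0.48 and -1.42, close to wild type and far from the Nkx2.2 arrays. Sim1 rose by 4.997 ± 0.72 in the Nkx2.2 line under RA against the RA wild type (adjusted p = 0.000107 in limma) and was higher by 4.30 ± 0.72 than in the Olig2 line (adjusted p = 0.000495 in limma). The Olig2 line differed from the RA wild type by 0.70 ± 0.72, with a 95% interval from -0.83 to 2.23. Between the Nkx2.2 line under RA and the lone Olig2 array of the second batch the difference was 4.92. Days 10 and 8 differ in both comparisons with the Nkx2.2 line. Of 4 neuronal markers, 0 were higher and 1 was lower in the Nkx2.2 line under RA than in the RA wild type, with a median difference of -1.07 beside 0.01 over all genes. That gene, Tubb3, a neuronal tubulin, was at -1.44, -1.34 and -1.45 against 0.00, 0.00 and -0.25. Of 4 progenitor markers 1 was higher, Sox2, at 0.45, 0.57 and 0.70 against -1.90, -1.09 and -0.63. Their part in the Sim1 difference was not tested.

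Under FGF8 Sim1 was scattered, at 1.55, 0.17 and 3.05 in the Nkx2.2 line and at 0.80, -1.04 and 1.58 in wild type cells. These arrays overlapped, and the difference of 1.14 ± 0.72 was not called (adjusted p = 0.462 in limma), and it was 0.01 within the second batch, which holds 1 of these wild type arrays. On replicate 2 of the FGF8 wild type, the lowest in Sim1, the proliferation gene Mki67 was at -2.32 against 1.79 and 2.199, the Notch target Hes5 at -0.13 against 3.42 and 4.35, and Tph2 at 1.13 against -1.996 and -3.97. On replicate 3 of the Nkx2.2 FGF8 group, the highest in Sim1, the LIM homeodomain genes Lhx2 and Lhx9 were at 4.82 and 3.76 against -0.02 to 0.11 on its other arrays. The part of these differences in the Sim1 values was not tested. The Nkx2.2 arrays under FGF8 all lay below those under RA, with a difference of -1.91 ± 0.72 that was not called either (adjusted p = 0.142 in limma). In the Lmx1a line Sim1 was at 2.71, 2.98 and 4.65 at day 10 and at -1.55, -0.23 and -0.49 at day 14. The fall from day 10 to day 14 was -4.20 ± 0.72 (adjusted p = 0.00255 in limma). Replicate 3 of day 10, the highest in Sim1, stood apart in Olig2, at 4.89 against 0.58 and 0.91, in Lhx2, at 5.24 against 1.82 and 0.37, in Dbx1, at 3.39 against 0.58 and 0.22, and in Dll3, a Notch ligand gene, at 2.96 against 0.67 and 0.12. Dll3 also fell by 3.02 ± 0.57 from day 10 to day 14 (adjusted p = 0.00466 in limma), and the part of these genes in the Sim1 values was not tested. Of the 6 genes of the V3 and p3 list described further on, Sim1 alone rose in Lmx1a day 10 cells against the FGF8 wild type, with a median difference of -0.05 over the list beside 0.03 over all genes. Nkx2-2 had its lowest mean, -1.64, in that group. Lmx1a cells at day 10 and Nkx2.2 cells under RA had nearly equal means, with a difference of -0.06 and a 95% interval from -1.59 to 1.48. The rise over the FGF8 wild type, 3.00 ± 0.72 (adjusted p = 0.0267 in limma), was lost without replicate 3 of Lmx1a day 10 (adjusted p = 0.0856) and without replicate 1 or 2 of the FGF8 wild type (adjusted p = 0.0613 and 0.0845), and within the first batch (3.57, adjusted p = 0.0909). It was lost under 7 of 18 alternatives in all, with an adjusted p of up to 0.234 when only these arrays were fitted, and was 1.83 as a mean of both Sim1 probe sets (adjusted p = 0.0335).

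In order of group means Sim1 ran from 3.50 in the Nkx2.2 RA and 3.45 in the Lmx1a day 10 group through 1.59 in the Nkx2.2 FGF8 and 0.45 in the FGF8 wild type group to -0.76, -0.79 and -1.49 in the Lmx1a day 14, Olig2 and RA wild type groups. No neighbours in this order were told apart. The second Sim1 probe set followed the first with r of 0.738 over 21 arrays but over a narrower range. It was at 0.54, 1.68 and 0.69 in the Nkx2.2 line under RA and at 0.18, 0.00 and -0.07 in the RA wild type, which again do not overlap. Its difference of 0.93 ± 0.37 was not called (adjusted p = 0.0866 in limma over probe sets), and none of its other comparisons was. At day 10 its Lmx1a arrays were at 0.20, 0.46 and 1.88, so 1 array carried most of that group's signal.

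**Figure D3:**
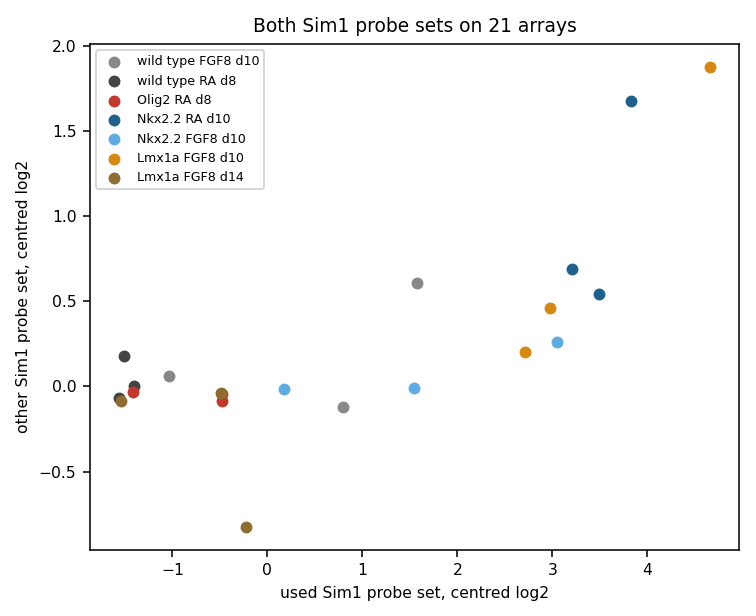
The second Sim1 probe set (y axis) against the one used (x axis), both as centred log2 signal; each point is 1 of 21 arrays, coloured by group. Only replicate 2 of Nkx2.2 RA and replicate 3 of Lmx1a day 10, at 1.68 and 1.88, exceed 1 on the second probe set.

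All 6 genes of the V3 and p3 list were measured, and 4 rose and 1 fell in the Nkx2.2 line under RA. Nkx2-2, the p3 factor that the line carries, rose by 2.61 ± 0.42, Olig3 by 2.81 ± 0.72 and Neurog3 by 2.49 ± 0.59 (adjusted p = 0.000277, 0.00792 and 0.00497 in limma). Neurog3, a proneural bHLH factor, was at 3.96, 3.69 and 2.73 against 0.92, 1.86 and 0.12. Olig3, a bHLH factor of p3 cells and of dorsal progenitors, was at 4.86, 3.20 and 0.77 and so varied strongly within the group. Uncx, a homeodomain factor of V3 and other neurons, fell by 3.33 ± 0.58 (adjusted p = 0.000498 in limma). The list's median difference was 2.55, beside 0.01 over all genes. The line carries Nkx2-2, and whether its rise came from the carried copy was not tested. Of the other 5 genes 3 rose and 1 fell, with a median of 2.49. Against the Olig2 line 5 of the 6 were higher and 0 lower, and these include Uncx, which was at -4.78, -4.51 and -4.76 in the Olig2 line. Under FGF8 only Nkx2-2 rose and Uncx fell against wild type. Nkx2-9, another p3 factor, was flat, within -0.09 to 0.37. The genes most like Sim1 over 21 arrays were Nkx6-1, Snx17 and Mmd2, with r of 0.83, 0.828 and 0.776.

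**Figure D4:**
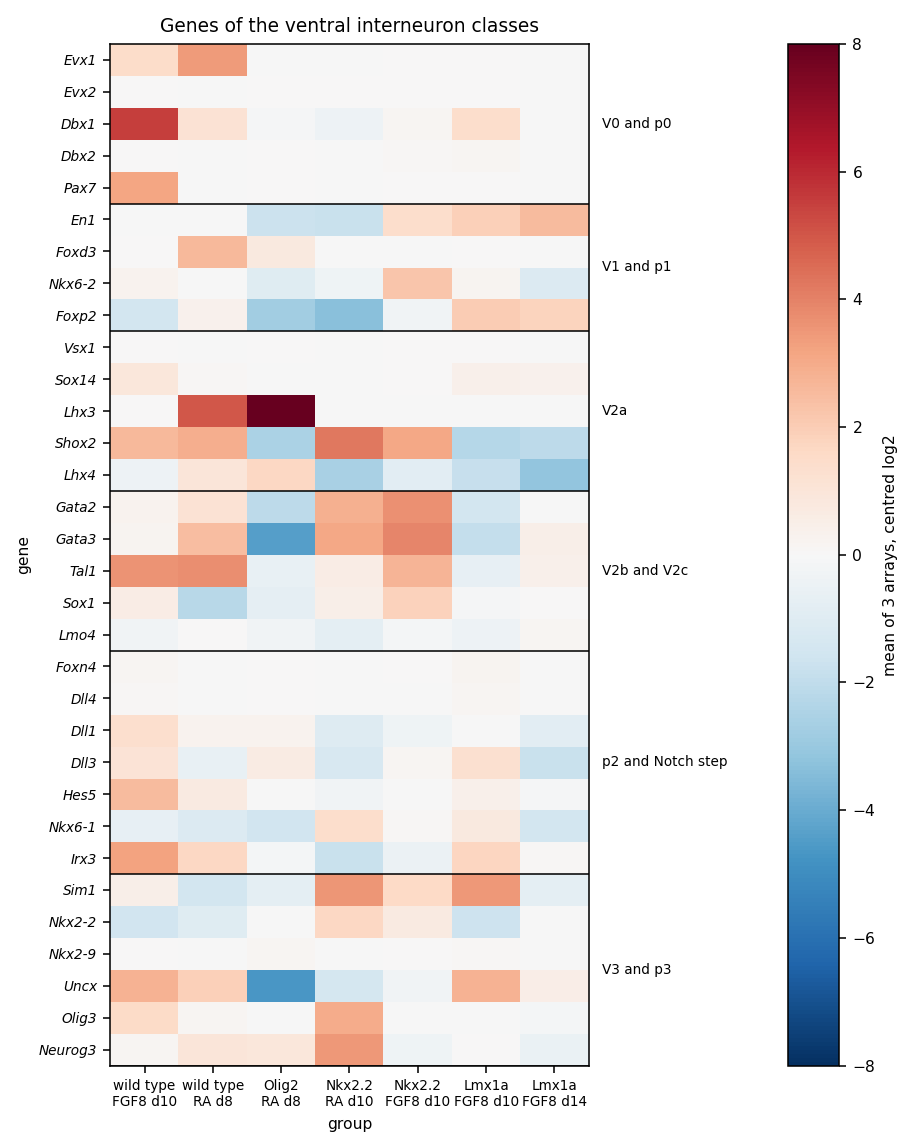
Mean centred log2 signal of 3 arrays (colour, scale from -8 to 8) of the listed genes (y axis) in 7 groups (x axis), ordered by interneuron class. The V0 rows are coloured mainly in the wild type columns, and Sim1, Nkx2-2, Olig3 and Neurog3 are highest in the Nkx2.2 RA column or, for Sim1, equally in Lmx1a day 10.

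Counted over the 6 genes, 2 fell and 0 rose in the Olig2 line against the RA wild type, Evx1 and Tal1, where 10.4% of all genes were called, 5.50% as higher and 4.85% as lower. In the Nkx2.2 line under RA 2 fell and 1 rose, against 18.0% of all genes, 9.16% as lower and 8.84% as higher. Under FGF8 Evx1 alone fell, against 4.53% called and 1.71% lower. The Nkx2.2 line under RA differed from the Olig2 line in Sim1 alone, against 13.1% of genes. Between the Nkx2.2 groups limma called 0 of the 6, against 4.31%, and 2 of them, Tal1 and Sim1, had an unadjusted p under 0.05. Lmx1a cells at day 10 differed from the FGF8 wild type in 3 genes, against 3.31%, from day 14 in Sim1, against 4.24%, and from the Nkx2.2 line under FGF8 in Tal1, against 5.07%. The wild type groups differed in Evx1, against 7.40%. The Nkx2.2 line under FGF8 exceeded the Olig2 line in Tal1 and Sim1, against 6.48%, where line, condition and day all differ. The Sim1 difference there was 2.38 ± 0.72 (adjusted p = 0.0487 in limma). Its second probe set had means of 0.08 in the Nkx2.2 line and -0.05 in the Olig2 line. No alternatives were run for this pair of groups. Comparisons with the same wild type arrays share them and are not independent of each other.

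Whether the Nkx2.2 line departed from wild type differently under RA and FGF8 was tested with the interaction, which called 4.38% of genes and 2 of the 6. Evx1 was at the baseline in both Nkx2.2 groups, so its interaction mostly restates the gap between wild type means of 3.44 under RA and 1.47 under FGF8. It was -2.01 ± 0.42 (adjusted p = 0.0127 in limma). It was lost with only these 12 arrays in the fit (adjusted p = 0.071), and in the second batch, with its lone FGF8 wild type array, the adjusted p was 0.123. For Sim1 it was 3.85 ± 1.02 (adjusted p = 0.04 in limma), and this call was lost without any 1 of 9 of the 12 arrays (adjusted p from 0.0517 to 0.11). It held without replicate 3 of either Nkx2.2 group or replicate 2 of the FGF8 wild type. For Tal1 it was -2.20 and was not called (adjusted p = 0.278 in limma). The RA side compares day 10 with day 8, so condition and day cannot be told apart in it.

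**Figure D5:**
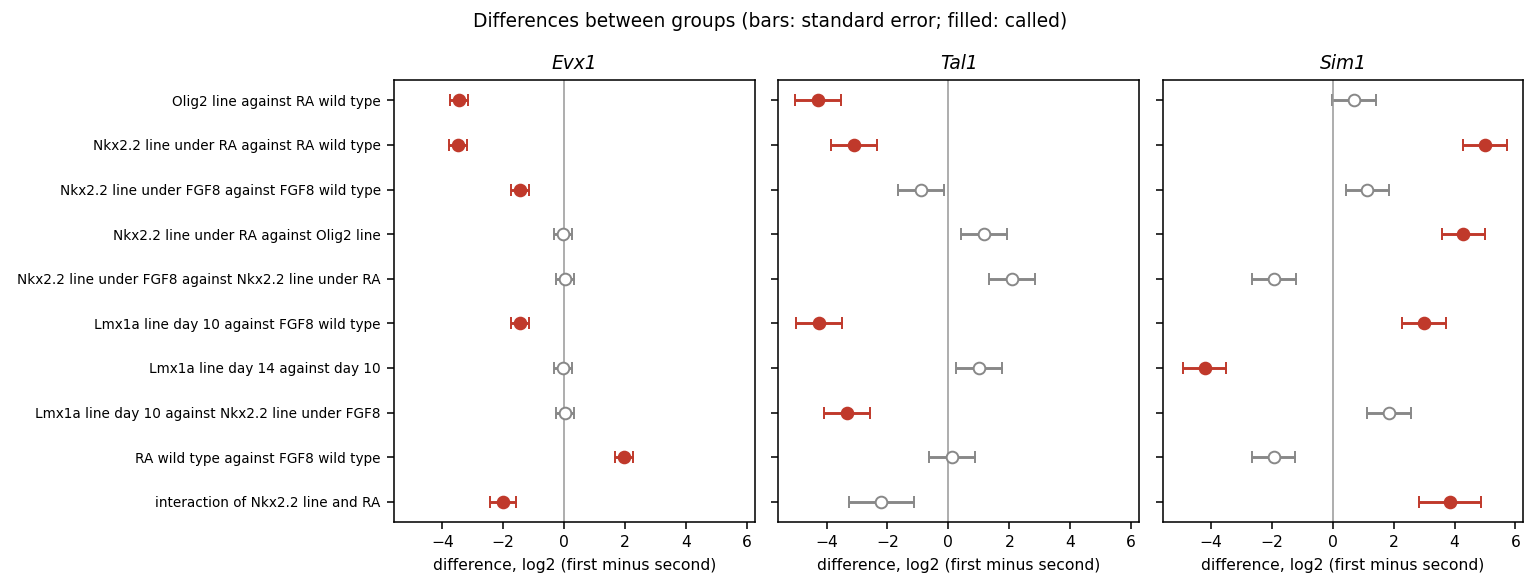
Log2 differences of Evx1, Tal1 and Sim1 (x axis, first group minus second) in 9 comparisons and 1 interaction (y axis); bars are standard errors and filled points were called. Against wild type Evx1 lies at -3.47 to -1.44 in all 4 comparisons, and Sim1 reaches 4.997 in the Nkx2.2 line under RA.

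The genes most like Evx1 over 21 arrays were Slc6a5, the glycine transporter of inhibitory neurons, Nr5a2 and Esrrb, nuclear receptor genes, with r of 0.954, 0.949 and 0.945. Slc6a5 averaged 5.36 in the RA wild type and 0.86 in the FGF8 wild type, where its arrays ran from 0.00 to 2.28. The r between Evx1 and Tal1 was 0.678. These values describe 21 arrays that share 7 groups, and wild type groups carry most of the spread of Evx1.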

How the data were processed

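The authors deposited log2 signals made with GCRMA, per the submitters' processing notes, with no version given in the sources used here. A further centring of each probe set on its median over 27 arrays shows in the values, since no probe set has more than 13 values above or below 0 and 79.2% hold an exact 0. Per the labels, cRNA was made from 2 ug of total RNA. Of 45101 probe sets, 64 are controls, 34945 have 1 gene symbol in GEO's platform annotation, 932 several and 9160 none here. Without any filter, the probe set of largest SD over the 21 arrays stood for its gene, which gave 18193 genes.

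Group means were tested by limma 3.58.1 under R 4.3.3 (lmFit, 1 mean per group over all 21 arrays, eBayes; 14 residual and 1.11 prior degrees of freedom). Benjamini-Hochberg adjustment ran over all genes within a comparison. A call needed both a log2 difference of at least 1 in size and an adjusted p below 0.05, and "not told apart" means not called. The fits were tested on simulated data. The number of arrays limits the precision, and the labels name biological replicates without saying whether they were separate cultures, so p-values measure the spread between these samples. No arrays were identical. Same-numbered arrays did not deviate together (mean r of residuals 0.00603 over 63 pairs, against -0.00337 over 126 pairs with different numbers).

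The 6 genes, the gene lists and the rules were chosen with earlier results of these data known. The rule for named genes took the 6 genes in every group, counts per list with up to 4 called members per comparison, and the 3 genes most like each member whose group means span 2 or more. Listed genes named for other values, including those on which single arrays stand apart, and the muscle list, were chosen after values were seen. Alternatives were a replicate block, the bioC batch as a block and within each batch (added after the split was seen), array weights, array centring, moderation, probe set rules, a range filter, a stricter threshold, only the arrays compared, and arrays left out.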

Additional observations from a re-analysis of the deposited data

Results flagged for a closer look

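By limma's interaction term with Benjamini-Hochberg adjustment over all genes, 2 of the 6 genes were called, against 4.38% of all genes. The term compares the difference of the Nkx2.2 line from wild type under RA with that under FGF8. For Evx1 the interaction was -2.01 ± 0.42 (SE, adjusted p = 0.0127), with a fall of 3.47 under RA and of 1.47 under FGF8. Evx1 was at the baseline in both Nkx2.2 groups, with means of -0.04 under RA and 0.0006 under FGF8. The unequal falls mostly restate the difference of 1.97 between the wild type groups. For Sim1 the interaction was 3.85 ± 1.02 (adjusted p = 0.04), with differences of 4.997 under RA and 1.14 under FGF8. The Evx1 call was lost under 3 of 24 alternatives and the Sim1 call under 13 of 24, among them leaving out any 1 of 9 arrays, with an adjusted p of up to 0.11. The second Sim1 probe set gave 1.04 (adjusted p = 0.333 over probe sets). Wild type cells were sampled at day 8 under RA and at day 10 under FGF8, so day and condition cannot be told apart.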

How the results depend on the processing

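The calls of Evx1, Tal1 and Sim1 in the Nkx2.2 line under RA against wild type, of Evx1 in the Olig2 line, of Sim1 between the Nkx2.2 RA and Olig2 groups and of Sim1 between Lmx1a days held under all 18 alternatives run for each, which include values within the second batch that rest on 1 Olig2 array. Tested on its own, the second Sim1 probe set called none of these, with 0.93 against wild type, 1.03 against Olig2 and -1.17 between Lmx1a days (adjusted p = 0.0866, 0.0709 and 0.0897 over probe sets). The share of all genes called was not counted in the alternative fits, so a changed count cannot be tied to the 6 genes in particular. The count of the 6 genes called changed as follows, and the cause was not tested. With only the arrays of the groups compared it was 0 for Lmx1a day 10 against Nkx2.2 FGF8, 0 between the wild type groups and 0 for the interaction. With array weights it was 2 for each of Nkx2.2 RA against Olig2, Nkx2.2 FGF8 against RA, Lmx1a day 10 against Nkx2.2 FGF8 and the wild type groups. The interaction kept 1 call with the batch as a block, 1 with arrays centred on their medians, 1 within the second batch and 0 at an adjusted p under 0.01. That threshold left 1 for Lmx1a day 10 against wild type and 0 against Nkx2.2 FGF8. Without the 3 arrays with the highest medians the count was 0 for Nkx2.2 FGF8 against wild type, 1 for Lmx1a day 10 against wild type, 0 against Nkx2.2 FGF8 and 2 between the wild type groups. Within the first batch 1 remained for Lmx1a day 10 against wild type, and Tal1 there gave -4.25 (adjusted p = 0.0554). Within the second batch, which holds 1 array each of the Olig2 and FGF8 wild type groups, assumed to vary like the others, 1 remained for Olig2, where Tal1 gave -4.04 (adjusted p = 0.0876), 0 for Nkx2.2 FGF8 against wild type and 0 between the wild type groups, where Evx1 gave 2.23 (adjusted p = 0.07).

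Leaving out 1 array at a time gave counts of 0 to 2 for Lmx1a day 10 against Nkx2.2 FGF8, 1 to 2 for the interaction, 0 to 1 between the Nkx2.2 groups and 1 to 2 between the wild type groups. Signs turned for 2 differences that were not called: Sim1 in Nkx2.2 FGF8 against wild type with array weights (-0.33), and Tal1 between Lmx1a days without replicate 1 of day 14 (-0.0462; leaving out single arrays gave -0.0462 to 1.71). The replicate numbers gave no pairing, and the replicate block left each count as it was, for example 3 for the Nkx2.2 line under RA and 2 for the Olig2 line against wild type.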
